A study of Mus musculus with 2 samples.

Results

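Described here are 4 chemokine genes of mouse muscle stromal cells, Cxcl9, Cxcl10, Ccl5 and Ccl19, chosen by name from a table in which the authors deposited 179 genes as significant. The cells were fibro/adipogenic progenitors, or FAPs, mesenchymal stromal cells that lie between muscle fibres, sorted from muscle of C57BL/6 mice and cultured in DMEM with 20% fetal bovine serum and penicillin-streptomycin. One culture group was given Musclin, a muscle-secreted peptide, as 1 µM recombinant mouse protein, and the other an equal amount of vehicle. Both were treated for 72 hours with daily medium changes, and each group gave 1 RNA sequencing library. The vehicle library is headed PBS in the table, and it was taken as vehicle because it is the denominator of every fold and the only other library. The labels do not give the sorting gate, the number of mice or any pooling.

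Chemokines are small secreted proteins that steer leukocytes through G protein-coupled receptors. Cxcl9 and Cxcl10 are ligands of Cxcr3, a receptor of activated T cells and natural killer cells, and interferons are their classical inducers. Ccl5 (RANTES) draws T cells and monocytes into inflamed tissue. Ccl19 is a ligand of Ccr7, which guides naive T cells and mature dendritic cells within lymphoid tissue, where fibroblastic reticular cells are a known source of it.

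Both chemokine classes are represented, and they are told apart by the first pair of conserved cysteines. Coding stretches around that pair are shown because they separate the CXC genes from the CC genes. They were read from GENCODE M21 transcripts of GRCm38, 5′ to 3′ on the coding strand, with the cysteine codons in capitals.
Cxcl9: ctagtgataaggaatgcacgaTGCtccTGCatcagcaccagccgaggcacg
Cxcl10: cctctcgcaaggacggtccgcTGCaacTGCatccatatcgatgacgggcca
Ccl5: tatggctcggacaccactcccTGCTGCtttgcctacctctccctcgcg
Ccl19: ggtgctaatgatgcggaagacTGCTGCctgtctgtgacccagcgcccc
In Cxcl9 and Cxcl10, 1 codon lies between the cysteine codons, which are codons 30 and 32 in both genes. In Ccl5 and Ccl19 they are adjacent, as codons 33 and 34 in both genes. The coding regions shown are 126 codons long in Cxcl9, 98 in Cxcl10, 91 in Ccl5 and 108 in Ccl19, stop codon not counted. The direction of the difference between the libraries did not follow this split, since Ccl5 and Ccl19, both of the CC class, differed in opposite directions.

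Of the 4 chemokines, 3 were higher in the Musclin library (Cxcl9, Cxcl10 and Ccl5) and 1 was lower (Ccl19). The table lists 0.772% of the 23180 genes the authors tested, 0.500% as higher and 0.272% as lower. The members were taken from this table with their values known, so nothing can be read from the fact that all of them are in it. With 1 library per group there is no spread between replicates, and no test across samples was run. Levels are the authors' deposited expression values, whose unit is not stated. They are taken as per length, because RSEM, named in the submitters' processing notes, gives TPM and FPKM among its outputs. This was not checked, and comparisons of level between genes rest on it. The read depth of the libraries is unknown. In a bulk library, fewer cells of a type and less RNA per cell cannot be told apart.

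**Figure D1:**
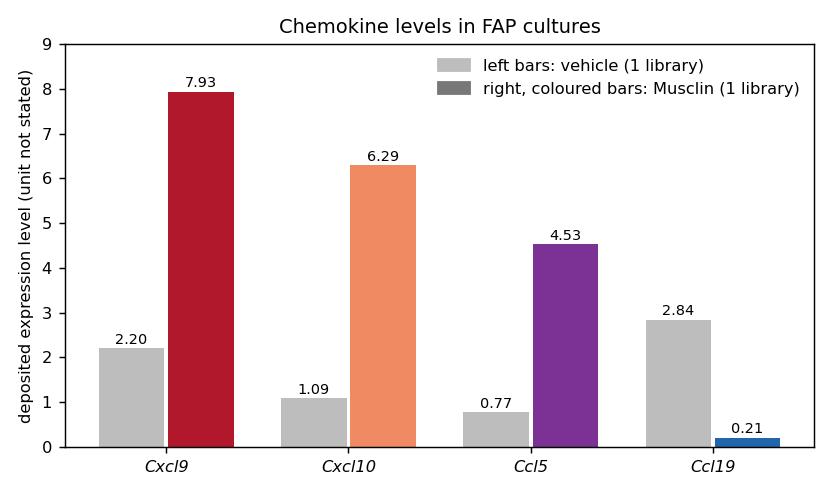
Deposited expression level (unit not stated) of each chemokine in the vehicle library (left, grey bars) and the Musclin library (right, coloured bars), 1 library each, so no error bars can be drawn. Cxcl9, Cxcl10 and Ccl5 were higher with Musclin, at 7.93, 6.29 and 4.53, whereas Ccl19 stood at 2.84 with vehicle and 0.21 with Musclin.

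Cxcl9, first known as the monokine induced by gamma interferon, spans 5:92321347-92328079 (GRCm38, minus strand; ENSMUSG00000029417). It stood at a level of 2.20 in the vehicle library and 7.93 in the Musclin library. The latter was thus the higher, by 3.60-fold as a ratio of levels, and Cxcl9 had the highest level of the 4 genes there. In the authors' deposited table its fold was smaller, 2.50, with a log2 fold of 1.32 and an adjusted p of 4.11e-11.

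Cxcl10 (IP-10), which attracts activated T cells through the same receptor, spans 5:92346638-92348889 (minus strand; ENSMUSG00000034855). Levels of 1.09 in the vehicle library and 6.29 in the Musclin library gave a level ratio of 5.77. In the authors' deposited table the fold was 5.65, with a log2 fold of 2.50 and an adjusted p of 1.30e-09. Cxcl9 stood at 2.02 times the level of Cxcl10 with vehicle and at 1.26 times with Musclin. The summed level of these Cxcr3 ligands was 3.29 with vehicle and 14.22 with Musclin.

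Ccl5 spans 11:83525778-83530518 (minus strand; ENSMUSG00000035042). It had the lowest level of the 4 genes with vehicle, 0.77, and a level of 4.53 with Musclin. Its level ratio of 5.88 was close to that of Cxcl10. In the authors' deposited table the fold was 5.90, with a log2 fold of 2.56 and an adjusted p of 0.0266, the largest adjusted p among the 4 genes.

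Ccl19 spans 4:42754525-42756577 (minus strand; ENSMUSG00000071005). With vehicle it had the highest level of the 4 genes, 2.84, and with Musclin the lowest, 0.21. The level ratio was 0.0739. In the authors' deposited table the fold was 0.074, the log2 fold -3.76 and the adjusted p 0.00711. Because levels are printed to 2 decimals, rounding alone places its log2 level ratio between -3.79 and -3.72. The number of reads behind the level of 0.21 is unknown. The uncertainty of counting few reads is not part of that range.

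The order of the genes by level was therefore Ccl19, Cxcl9, Cxcl10, Ccl5 with vehicle and Cxcl9, Cxcl10, Ccl5, Ccl19 with Musclin. Without replicates, it cannot be said which neighbours in either order differ beyond their spread. Cxcl9, Cxcl10 and Ccl5 kept the same order among themselves in both libraries, and the highest of them exceeded the lowest 2.86-fold with vehicle and 1.75-fold with Musclin. They summed to 4.06 with vehicle and to 18.75 with Musclin, a ratio of 4.62. Ccl19 made up 41.2% of the summed level of all 4 genes with vehicle and 1.11% with Musclin. Put as a ratio, the other chemokines together stood at 1.43 times the Ccl19 level with vehicle and 89.3 times with Musclin. The latter ratio divides by a Ccl19 level of 0.21, whose read count is unknown. The mean log2 fold of Cxcl9, Cxcl10 and Ccl5 in the authors' deposited table was 2.13, which lay 5.89 above that of Ccl19.

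By level among the 179 listed genes, Cxcl9 ranked 57 with vehicle and 34 with Musclin, Cxcl10 ranked 79 and 40, and Ccl5 ranked 94 and 49. Ccl19 ranked 51 with vehicle and 148 with Musclin. The median level over the table was 0.86 in the former and 1.33 in the latter. Ccl5 was below that median with vehicle, at 0.77, and Ccl19 below it with Musclin, at 0.21. The listed protein-coding genes with an ordinary symbol (leaving out Gm and Rik symbols, pseudogene names and clone accessions) numbered 60, and 53 of them were above 0 in both libraries, 41 higher and 12 lower. By fold in the authors' deposited table, Ccl5 ranked 8, Cxcl10 ranked 9 and Cxcl9 ranked 26 among the 41 higher genes. Ccl19 ranked 2 among the 12 lower genes, after Fgf22, which had a fold of 0.059 there. The Fgf22 levels of 0.80 and 0.10 give a log2 ratio of -3.0, against its log2 fold of -4.08. Among all listed genes, Ccl5 ranked 48, Cxcl10 ranked 50 and Cxcl9 ranked 89 by fold of the 116 higher. Ccl19 ranked 20 of the 63 lower, and these wider ranks include genes at 0 in 1 library. The median log2 fold was 1.91 for the 4 chemokines and 1.29 for all listed genes in the authors' deposited table, values that mix both directions. Among listed higher genes alone the median there was 2.19, and among those coding with an ordinary symbol 1.79. The mean for Cxcl9, Cxcl10 and Ccl5, 2.13, lay between these medians. For lower genes the same medians were -2.50 and -1.54, and Ccl19 stood at -3.76.

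The order by p differed from the order by fold. Among all 23180 genes tested, Cxcl9 ranked 178 by p, Cxcl10 205, Ccl19 722 and Ccl5 983, as worked out from the p and adjusted p of the authors' deposited table. These p-values compare 2 libraries and not 2 conditions. Cxcl9, with the smallest fold of the 3 higher genes, had the smallest p, and Ccl5, with the largest fold, had the largest. The genes also differ in length, and a longer transcript yields more reads at the same level. The longest coding transcript is 2889 nt in Cxcl9, 1353 nt in Cxcl10, 532 nt in Ccl5 and 773 nt in Ccl19. Level times length in kilobases came to 22.9 for Cxcl9 and 8.51 for Cxcl10 with Musclin. The product was 2.41 for Ccl5 with Musclin and 2.20 for Ccl19 with vehicle, the higher library of each. The part of length in the p-values was not tested.

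**Figure D2:**
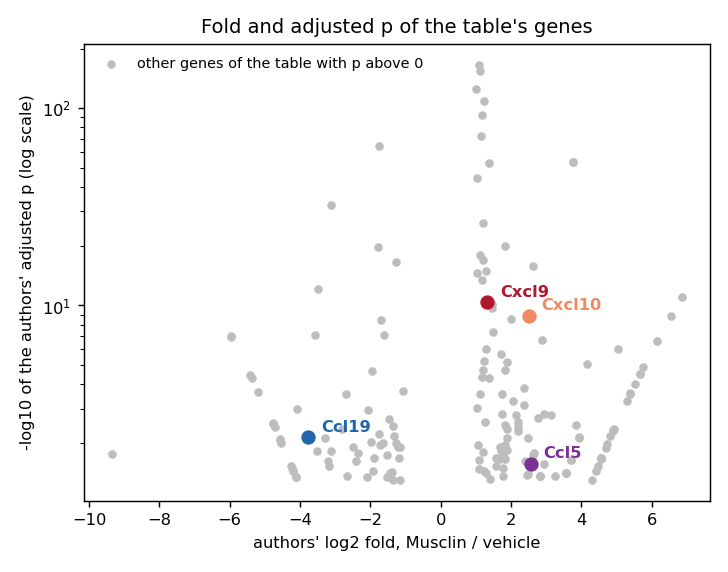
The authors' log2 fold (horizontal axis) and -log10 of the authors' adjusted p (vertical axis, log scale) for the listed genes with a p above 0, with the 4 chemokines coloured. Cxcl9 has the smallest adjusted p of the 4, 4.11e-11, and the smallest fold of the 3 higher genes, while Ccl5 lies near the lower edge of the plot with an adjusted p of 0.0266.

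For Cxcl10, Ccl5 and Ccl19 the ratio of levels was close to the fold in the authors' deposited table, with log2 differences of -0.03, 0.0043 and -0.0036. For Cxcl9 the log2 fold was 1.32 and the log2 level ratio 1.85, a difference of -0.53. Rounding of the levels leaves the log2 level ratio of Cxcl9 at 1.85. By the size of this difference, Cxcl9 ranked 16 among the 138 listed genes above 0 in both libraries, whose median difference was 0.0023. The size of the Cxcl9 difference between the libraries thus depends on which deposited quantity is read, while its direction does not. GENCODE M21 annotates Cxcl9 with a coding transcript of 2889 nt and a retained-intron transcript of 370 nt, and levels per transcript were not analysed here.

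**Figure D3:**
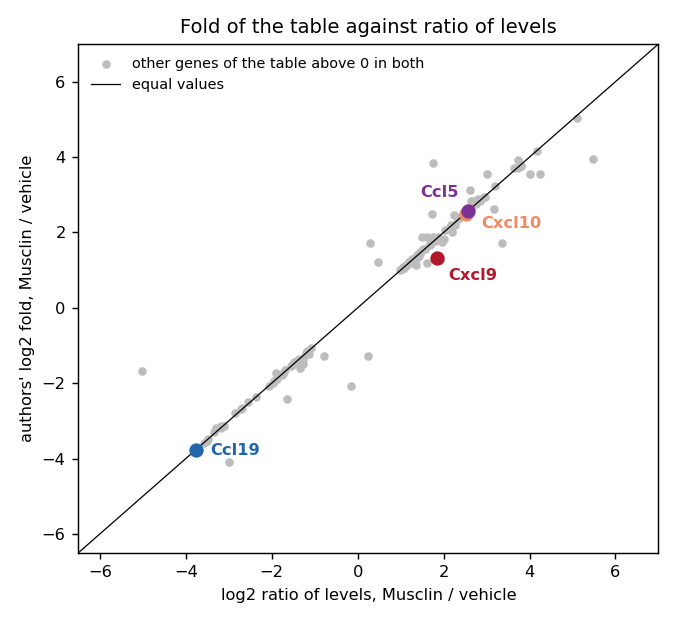
The authors' log2 fold (vertical axis) against the log2 ratio of the deposited levels (horizontal axis), Musclin over vehicle, for the 138 listed genes above 0 in both libraries, with a line of equal values. Cxcl10, Ccl5 and Ccl19 lie on the line, and Cxcl9 lies 0.53 below it on the log2 scale.

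Likeness to other genes was measured as the distance between log2 levels over the 2 libraries, among 49 other protein-coding genes of the table above 0 in both that have an ordinary symbol. This leaves out 16 protein-coding genes with a provisional or pseudogene symbol. Of these 49, the nearest to Cxcl9 were Tgtp2, with levels of 1.86 and 7.54 at a distance of 0.25, then Gbp9 at 0.64 and Ddx60 at 0.81. Nearest to Cxcl10 were Orm1, with levels of 1.45 and 5.11 at a distance of 0.51, then Pdzk1 at 0.73 and Hist1h2br at 0.79. Mx1 was nearest to Ccl5, with levels of 0.77 and 3.54 at a distance of 0.36, followed by Pdzk1 and Hist1h2br, both at 0.46. The nearest of the 49 to Ccl19, Hoxa13, C7 and Rnf128, were 1.37, 1.73 and 1.77 away. Over all 134 other listed genes above 0 in both, whatever their symbol or type, Tgtp2 and Mx1 were still nearest to Cxcl9 and Ccl5. Over that set the nearest to Cxcl10 was Rpl17-ps3, at 0.32, and the nearest to Ccl19 was Gm20659, with levels of 2.96 and 0.26, at 0.31. The protein-coding gene Gm49383 was 0.55 from Ccl19. These provisional and pseudogene symbols were named after their values were seen. Between the chemokines, Cxcl10 and Ccl5 were the closest pair at 0.69, and the distances from Ccl19 to the other members were 4.81 to 5.25. With only 2 libraries, such distances describe a pair of levels and nothing further.

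**Figure D4:**
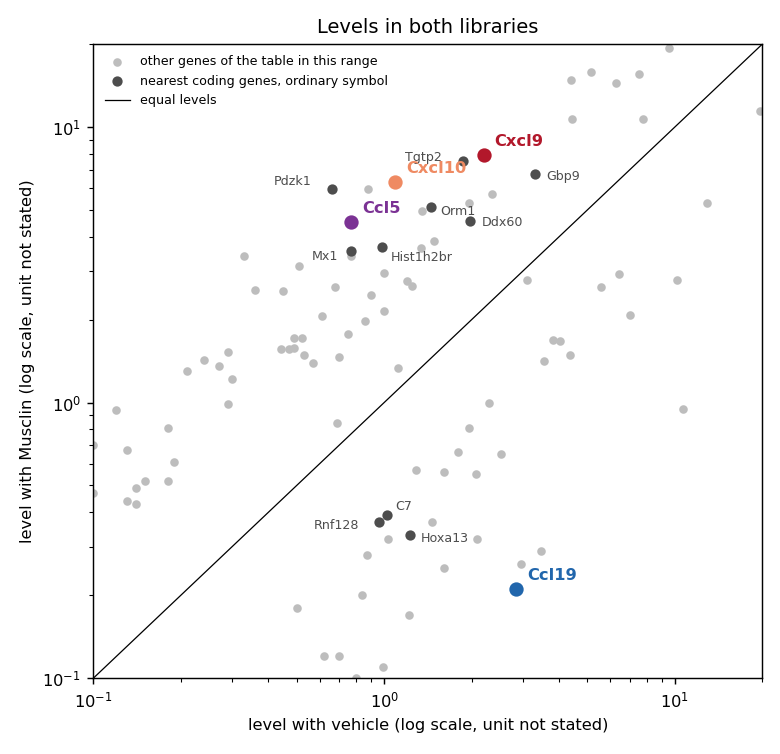
Level with vehicle (horizontal axis) and with Musclin (vertical axis), both on log scales with the unit not stated, for listed genes with both levels between 0.1 and 20, the 4 chemokines coloured and, in dark grey, the nearest of the 49 coding genes with an ordinary symbol. Cxcl9, Cxcl10 and Ccl5 lie together above the line of equal levels, near Tgtp2, Orm1 and Mx1, and Ccl19 lies below it.

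Cxcl9 and Cxcl10 are neighbours on chromosome 5, 18.6 kb apart on the same strand. Cxcl11, the third Cxcr3 ligand, lies 10.7 kb beyond Cxcl10 and is annotated as a polymorphic pseudogene. It was not among the genes in the table. Within 100 kb, Cxcl9 had 7 annotated protein-coding genes or polymorphic pseudogenes and Cxcl10 had 8, and in each case the 1 in the table was the other chemokine. The gene of Ccl5 lies 42.4 kb from Ccl9 and 57.4 kb from Ccl6, which are also CC chemokines, and 0 of its 7 neighbours within 100 kb were in the table. Ccl19 lies 16.3 kb from Ccl21a, another Ccr7 ligand, and 0 of its 6 neighbours were in the table. The authors listed 0.772% of all genes tested, so 0 among so few neighbours says little. The neighbours that were in the table, Cxcl9 and Cxcl10, are members chosen with their values known.

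By receptor, 2 of 3 ligands of Cxcr3 were in the table, both higher. Both are members chosen with their values known, and 0.500% of all genes tested were listed as higher. Of 4 ligands of Ccr7, Ccl19 was the 1 in the table, and Ccl21a, Ccl21b and Ccl21c were not. Of 4 ligands of Ccr2, the main receptor for the recruitment of inflammatory monocytes, 0 were in the table (Ccl2, Ccl7, Ccl8 and Ccl12). Over all 41 chemokines, 3 were higher, 1 was lower and 37 were not in the table. Of the chemokine receptors looked up, 0 of 24 were in the table. Interferons with their receptors and signalling genes had 0 of 25, and genes of NF-kappaB and TNF signalling had 0 of 27. The authors listed 0.772% of all genes tested, so 0 from a list of this length says little. Interferon-inducible genes were not looked up as a list. Some of them, such as Mx1, Gbp9 and Tgtp2 above, were in the table and higher. A gene outside the table did not pass both thresholds of the authors or was not analysed here, and its levels are unknown.

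Markers of other cells were looked up in the same way, beside the same listed share of 0.772%, so a count of 0 says little here too. T and natural killer cells, which make Ccl5, had 0 of 14 markers in the table, and monocytes, macrophages and dendritic cells had 0 of 16. Endothelial cells had 0 of 10 and myogenic cells 0 of 10. Of 11 markers of fibroblastic reticular and lymphatic endothelial cells, Ccl19 itself was the 1 in the table. None of the 12 FAP markers was in the table, so the labelled cell type could not be checked from it. Erythroid markers had 3 of 8 in the table, all higher with Musclin. Hba-a1, Hbb-bs and Hbb-bt had a summed level of 17.2 with vehicle and 51.2 with Musclin. Their part in the chemokine differences was not tested, and the levels of the other markers were not analysed here.

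Reads of Ccl19 may be shared with related loci. Its longest coding transcript matched Gm2564 (4:42629719-42631714), a gene of the same chromosome, with 98.9% identity over 57.8% of its length. Ccl19-ps1, Ccl19-ps3 and Gm12407, all pseudogenes on chromosome 4, matched it at 98.95% identity or above over 36.9% to 37.0% of its length. These shares are of the longest single alignment to each locus, and further alignments were not added to them. GENCODE M21 also has 1 further gene named Ccl19, on a scaffold outside the assembled chromosomes, which was not aligned. None of these loci was in the table, so a shift of reads between them and Ccl19 was not tested. No near-identical copy was found for Cxcl9, Cxcl10 or Ccl5, with such a copy defined by at least 95% identity across 50% of the transcript or more.

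Cxcl10 and Ccl19 each overlap a gene on the opposite strand, and the labels do not say whether the libraries kept strand. The 3′ end of Cxcl10 shares 133 nt of exon with Art3-214, a noncoding transcript of Art3, which is 5.91% of the 2252 nt annotated as exonic in Cxcl10. Reads from that stretch cannot be assigned without strand. For Ccl19, the exons of the opposite gene 4930578G10Rik share 0 nt with its own, although the spans overlap.

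Promoters are shown for Cxcl9 and Cxcl10 because the genes are adjacent and were both higher, with a short stretch of Ccl19 for contrast. They come from RefSeq (GRCm38.p6, minus strand), for the 3 of 4 members that the table of promoters holds. Cxcl9 is shown over 5:92328080-92328329 and Cxcl10 over 5:92348890-92349139, the 250 bases before the first transcribed base. Ccl19 is shown over 4:42756554-42756583. Capitals mark matches, on either strand, to the interferon-stimulated response element (GAAA, any 2 bases, GAAA), the gamma-activated site (TTC, any 3 bases, GAA) or the NF-kappaB consensus site.
Cxcl9: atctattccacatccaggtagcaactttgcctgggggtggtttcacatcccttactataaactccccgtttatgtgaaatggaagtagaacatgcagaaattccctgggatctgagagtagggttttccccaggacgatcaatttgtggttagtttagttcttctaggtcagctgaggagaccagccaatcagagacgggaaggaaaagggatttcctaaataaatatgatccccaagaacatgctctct
Cxcl10: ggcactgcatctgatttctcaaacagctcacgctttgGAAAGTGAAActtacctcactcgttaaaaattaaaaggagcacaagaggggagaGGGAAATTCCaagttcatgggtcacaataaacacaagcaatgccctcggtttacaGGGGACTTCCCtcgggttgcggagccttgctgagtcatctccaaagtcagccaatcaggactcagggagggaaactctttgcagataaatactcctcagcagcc
Ccl19: ttttgggacaGAAAGTGAAAgctcaaggca
The Cxcl10 window held 1 match to the interferon-stimulated response element, from -213 to -204 counted from the first transcribed base. It also held NF-kappaB matches at 2 places, from -159 to -150 and from -104 to -94, the latter made of overlapping matches on both strands. The Ccl19 window held the same 10 letters of the response element, GAAAGTGAAA, from -208 to -199. GENCODE starts this gene 212 nt upstream of RefSeq, so in that annotation the match lies inside the gene. The Cxcl9 window held 0 matches to any of the 3 motifs.

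Matches are a description of letters in 300 bases and not of binding. Among 32851 promoter windows of that length, 3.44% held the response element, 8.30% the gamma-activated site and 8.46% the NF-kappaB site. Cxcl10, higher with Musclin at 6.29, and Ccl19, lower at 0.21, both held the response element letters, and Cxcl9, higher at 7.93, did not. No window of Ccl5 was available, and forms of the motifs other than these letters were not searched. Whether the letters go with the direction of the difference was not tested.

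**Figure D5:**
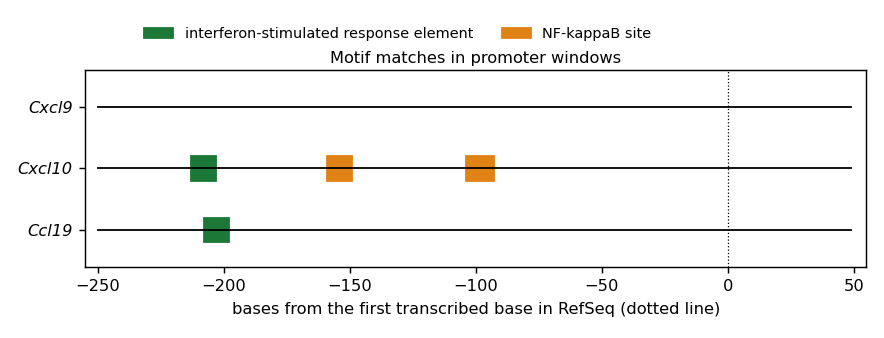
Positions of motif matches in the RefSeq promoter windows of Cxcl9, Cxcl10 and Ccl19, in bases from the first transcribed base (dotted line), with the interferon-stimulated response element in green and the NF-kappaB site in orange. Cxcl10 and Ccl19 hold the response element at similar places (-213 and -208), Cxcl10 also holds NF-kappaB matches at 2 places, and Cxcl9 holds 0 matches.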

How the data were processed

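Of 2 libraries, 1 from FAPs treated with Musclin and 1 with vehicle, 1 table of 179 genes was analysed. The submitters' processing notes name RSEM, edgeR and GRCm38.p5, without versions or roles. Filters, scaling and strandedness, not given in the sources used here, may affect the folds. Per the file headers, the authors deposited for each gene an expression signal per library, here called level, with a fold (ratio) and its log2. They also deposited raw and adjusted p-values.

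Level ratios, ranks, distances and sums were computed from the deposited values with Python 3.11.15, pandas 2.3.3 and numpy 2.4.6, and plotted with matplotlib 3.10.9. No test was run. The number of genes tested was worked out from p times number over adjusted p being whole, to 0.001, in the 178 genes whose p exceeds 0. It was recovered in 10 of 10 simulations, each from 170 genes drawn among the smallest p-values of a larger simulated set. No filter on fold was simulated. Positions, exons and coding sequence came from GENCODE M21 (GRCm38), all of the 4 gene IDs matching. Copies were searched with BLAST+ 2.17.0 (megablast). Promoter windows ran from 250 bases before to 50 after the RefSeq start.

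The members and all lists were chosen with earlier results of these data known. Named genes were the 4 members, listed members of the gene lists, and the 3 coding genes with an ordinary symbol nearest to each member. Fgf22, the annotated neighbours and copies of the members, and the genes under other observations were named after their values were seen. Alternatives were other thresholds and pseudocounts.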

Additional observations from a re-analysis of the deposited data

How the results depend on the processing

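No replicate could be left out, and depth is unknown. No paired analysis was possible because there was 1 library per group. A pseudocount added to both levels cannot reverse a direction, so only the sizes could move. The sizes did move, since the levels are low. The log2 values of the authors' deposited table for Cxcl9, Cxcl10, Ccl5 and Ccl19 were 1.32, 2.50, 2.56 and -3.76. As log2 level ratios without a pseudocount, Cxcl9 came to 1.85, Cxcl10 to 2.53, Ccl5 to 2.56 and Ccl19 to -3.76. With a pseudocount of 0.1 they were 1.80, 2.42, 2.41 and -3.25, in the same order. With 1 they were 1.48, 1.80, 1.64 and -1.67, and with 5 they were 0.84, 0.89, 0.72 and -0.59. The mean of Cxcl9, Cxcl10 and Ccl5 minus Ccl19 was 5.89 in the authors' deposited table. It was 6.07 without a pseudocount and 5.46, 3.31 and 1.41 with 0.1, 1 and 5. An adjusted p of 0.01 or less left 3 of the 4 genes, without Ccl5, and 0.001 or less left 2, Cxcl9 and Cxcl10. Of all 179 listed genes, these limits left 106 and 68. An absolute log2 fold of 2 or more left 3, without Cxcl9, and 97 of the 179 listed genes. Requiring a level of at least 1 in the higher library left all 4, and at least 5 left 2, Cxcl9 and Cxcl10. Of the 179 listed genes, these minimum levels left 125 and 58. Leaving out genes with a near-identical copy, chosen after seeing the data, left 3, without Ccl19.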

Other observations

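Other genes of leukocyte and innate immune function were also in the table, and those described here were picked after their values were seen. They are not a full list, and Ifit1, Ifit3, Mx2, Rsad2 and Oas3, among others, are not described here. Orm1, which encodes an acute-phase plasma glycoprotein, stood at 1.45 in the vehicle library and 5.11 in the Musclin library. Btn2a2, a butyrophilin related to the B7 family, had 0.07 and 0.45, and Naip2, an inflammasome sensor of bacterial secretion systems, had 0.18 and 0.52. Il18rap, the accessory subunit of the interleukin-18 receptor, was lower, at 0.50 and 0.18. Bst1, an ectoenzyme also known as CD157, stood at 0.69 and 0.84, while the authors' deposited table gives it a fold of 3.30.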
